A study of Mus musculus with 9 samples.

Results

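Leukocyte genes were examined in the mouse uterus as a set of 38 genes that mark white blood cells, grouped by lineage into pan-leukocyte, macrophage, monocyte and myeloid, T cell, B cell, and granulocyte and mast cell genes. A gene was read at a probe set (a cluster of short oligonucleotides on the array) that the platform annotation assigns to that gene alone, and where there were several the one with the highest mean over the 9 arrays was used. In this way 36 of the 38 genes were read, out of 18193 genes in all, while Lck and Ly6g had no such probe set in the annotation used here. RNA of whole uterus at gestation day (GD) 3.5, shortly before embryo attachment, was hybridised for 3 groups of 3 arrays each. The groups were control mice, Mig-6 d/d mice, in which floxed Mig-6 (Errfi1, an inhibitor of ERBB receptor signalling) was deleted by Pgr-cre, and a double knockout, named Mig-6 d/d Erbb2 d/d, in which floxed Erbb2, an ERBB receptor gene, was deleted as well. Control mice carried floxed Mig-6 alone (Mig-6 f/f) or also floxed Erbb2 (Erbb2 f/f), and the sources used here do not say which genotype lay on which control array. Pgr-cre is active in cells that express the progesterone receptor (in the uterus, epithelium, stroma and smooth muscle). All mice were on a mixed C57BL/6 and 129P2/OlaHsd background and were mated to C57BL/6 males. The labels and the methods give different ages, the labels a younger one than the adult age of the methods. Each genotype's RNA came from a pool of several mice. The sources used here do not state whether a group's arrays hold separate pools, and p-values may therefore reflect only technical spread.

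The uterus holds a resident population of macrophages throughout the cycle and early pregnancy, in the stroma and the muscle wall. Their survival depends on the receptor CSF1R and its ligands CSF1 and IL34, and in the mouse uterus CSF1 is known to be made by epithelial cells under control of steroid hormones. Neutrophils and eosinophils enter under estrogen or after mating and are reduced by progesterone, and T and B cells are sparse before implantation. In a whole-tissue RNA sample, fewer cells of a type and less RNA per cell cannot be told apart.

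To show regulatory sequence behind the macrophage and myeloid genes described below, promoters were taken from RefSeq (build GRCm38.p6) as 300 bases, 250 before and 50 after the first listed start of each gene. C1qb (minus strand, chr4:136886151-136886450) and C1qc (minus strand, chr4:136892865-136893164) encode chains of complement C1q and are neighbours, and Fcer1g (minus strand, chr1:171234300-171234599) encodes the signalling chain of Fc receptors. They are printed 5′ to 3′ with each match to GAGGAA, the core of the site bound by the myeloid factor PU.1, or to its reverse complement TTCCTC, in capitals.
C1qb: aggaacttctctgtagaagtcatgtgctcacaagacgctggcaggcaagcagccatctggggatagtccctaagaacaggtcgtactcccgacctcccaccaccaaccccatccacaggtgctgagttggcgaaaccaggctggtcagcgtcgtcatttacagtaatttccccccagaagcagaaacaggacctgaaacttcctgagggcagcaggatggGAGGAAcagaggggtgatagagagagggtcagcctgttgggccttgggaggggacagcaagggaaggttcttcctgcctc
C1qc: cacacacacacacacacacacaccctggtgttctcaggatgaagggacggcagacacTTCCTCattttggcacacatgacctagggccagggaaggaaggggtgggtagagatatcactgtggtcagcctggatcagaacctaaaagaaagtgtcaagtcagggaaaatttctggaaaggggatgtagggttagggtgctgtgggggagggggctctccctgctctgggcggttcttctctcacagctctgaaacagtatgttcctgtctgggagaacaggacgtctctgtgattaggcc
Fcer1g: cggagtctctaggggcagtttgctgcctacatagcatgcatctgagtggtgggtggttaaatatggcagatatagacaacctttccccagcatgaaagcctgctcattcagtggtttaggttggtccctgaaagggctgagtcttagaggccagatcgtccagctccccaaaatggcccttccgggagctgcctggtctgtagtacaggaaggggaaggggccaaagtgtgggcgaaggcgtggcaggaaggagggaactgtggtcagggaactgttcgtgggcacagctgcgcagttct
C1qb held 1 match, starting at base 221 of the window, just upstream of the listed start, and C1qc held 1 match, on the opposite strand, starting at base 58. The Fcer1g window held 0 matches. Promoters were found for 27 of the 36 genes read, and 16 of these 27 (59.3%) held the motif on either strand, beside 7652 of all 27025 promoters in the table (28.3%). Among the pan-leukocyte, macrophage and myeloid genes 9 of 17 (52.9%) held it, and among the lymphoid, granulocyte and mast cell genes 7 of 10 (70.0%). These are matches of letters in a short window and were not tested for binding.

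The deleted genes were checked first. Errfi1 read 454, 564 and 286 on the control arrays, 15.1, 16.0 and 255 in Mig-6 d/d, and 76.05, 29.8 and 40.3 in the double knockout. The array labelled Mig-6 d/d replicate 3 thus read Errfi1 close to the lowest control, which goes against its label. Calls that rest on the Mig-6 d/d group are given with and without it. This doubt rests on 1 gene. Over all probe sets the array correlated at 0.994 and 0.9905 with Mig-6 d/d replicates 1 and 2. Its correlation with arrays of the other groups was not computed, so these values cannot tell whether its label is right. Its epithelial list (described below) stood at 1.23 against the 9-array mean, beside 1.12 and 0.73 on those replicates and 0.08 on control replicate 3. Erbb2 read 29.4, 36.7 and 45.7 in control, 46.55, 39.5 and 44.5 in Mig-6 d/d, and 18.3, 9.88 and 18.45 in the double knockout. Among the leukocyte genes, control replicate 3 was the lowest of the 9 arrays for 13 of the 23 pan-leukocyte, macrophage and myeloid genes, and double knockout replicate 1 was the highest for 11 of these 23.

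Intensities, the deposited unit of signal on a linear scale, ran from 2.11 to 11548.76 with a median of 8.07 over all probe sets and arrays. On all 9 arrays 21 of the 36 genes read above this median, namely 4 of 4 pan-leukocyte genes, 9 of 10 macrophage genes, 7 of 9 monocyte and myeloid genes and, among the 6 granulocyte and mast cell genes, Kit alone. No T cell gene (0 of 4) and no B cell gene (0 of 3) did so. The defining lymphoid markers read 3.38 to 11.6 for the T cell genes, which encode chains of the T cell receptor complex (Cd3e, Cd3g) and its coreceptors (Cd4, Cd8a), and 3.75 to 16.5 for the B cell genes. Intensities of different probe sets are not comparable as levels, and a reading near the median is not shown to be signal because no detection calls were used.

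**Figure D1:**
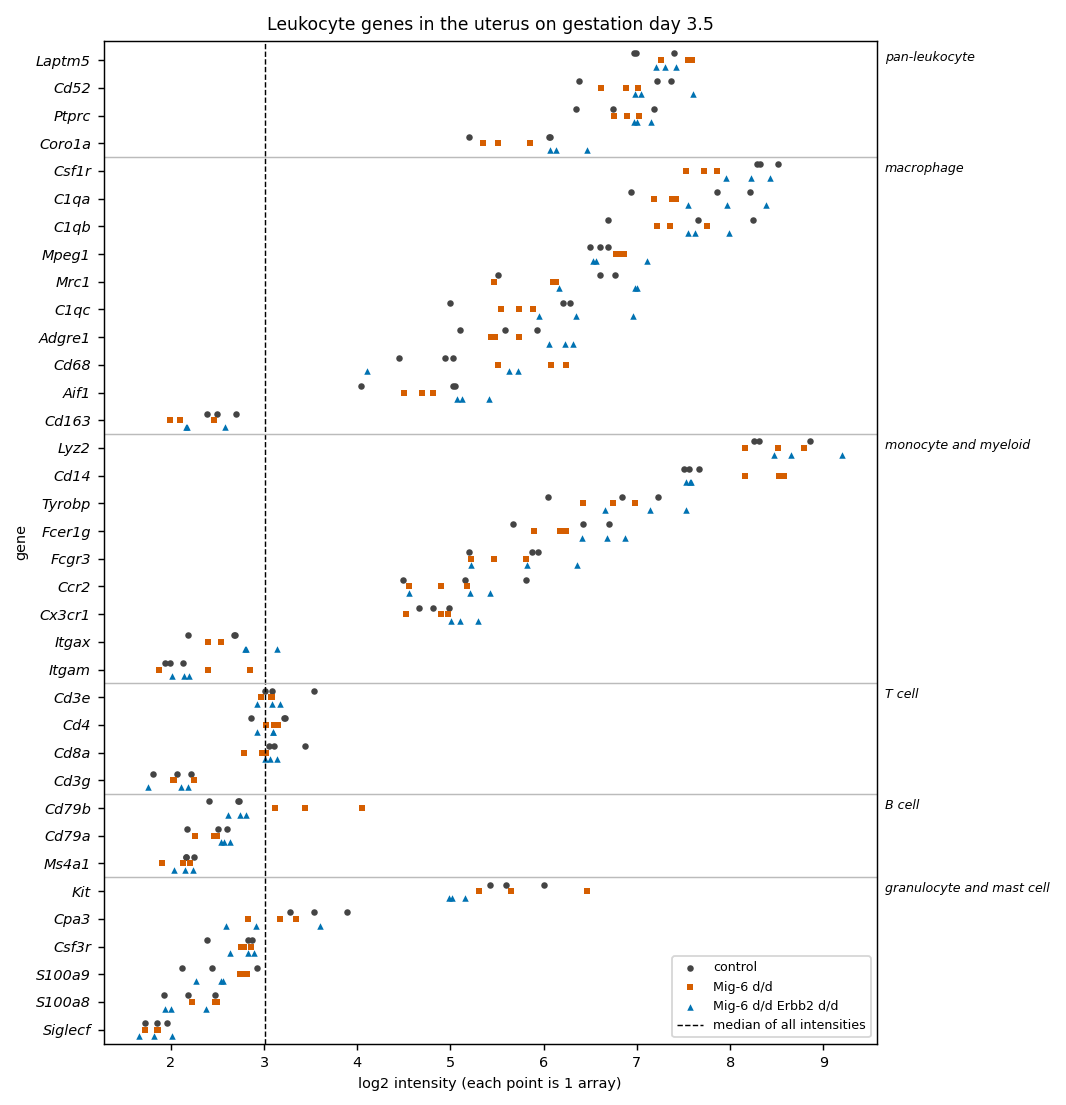
Log2 intensity of the 36 leukocyte genes, 1 row per gene and 1 point per array, with control as grey circles, Mig-6 d/d as orange squares and the double knockout as blue triangles, and with the median of all intensities (8.07 on the linear scale) as a dashed line. Positions along a row compare arrays for 1 gene, the T cell genes lie around or under the line, and the orange squares stand apart to the right for Cd14 and Cd79b and to the left for Csf1r.

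To determine which leukocyte genes differed after Mig-6 loss, Mig-6 d/d was compared with control in limma, with all 3 groups in 1 model. A gene was called where its change passed 1.5-fold and its p, adjusted by Benjamini-Hochberg across the whole array, was under 0.05. Cd14 and Cd79b were called increased and Csf1r was called decreased. This is 2 of 36 genes increased, where 2.55% of all 18193 genes were, and 1 of 36 decreased, where 1.81% of all genes were. The median log2 fold change of the 36 genes was -0.03, the same as over all genes (-0.03). The deleted gene Errfi1 was itself not called in this comparison (log2 fold change -3.41, limma adjusted p = 0.0719).

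Cd14 encodes a coreceptor that hands bacterial lipopolysaccharide to TLR4, on monocytes and macrophages and also on some epithelial cells. Its intensity was 203, 182 and 188 on the control arrays, 285, 368 and 384 on the Mig-6 d/d arrays, and 184, 190.5 and 191 on the double knockout arrays. The 3 Mig-6 d/d arrays stood above all 6 others, which lay close together. The increase over control was 1.80-fold (log2 0.84, SE 0.12, limma adjusted p = 0.0104). The double knockout was lower than Mig-6 d/d by 0.86 on the log2 scale (log2 fold change -0.86, SE 0.12, limma adjusted p = 0.00449). Against control the double knockout differed by -0.02 on the log2 scale, with a 95% interval from -0.28 to 0.25. Both differences were called in each of the 9 fits that left out 1 array. For each comparison, 3 of these 9 fits leave out an array of the third group. Such a fit alters the shared spread but not the fold change, here and in the counts of fits below. Leaving out the array labelled Mig-6 d/d replicate 3, they were 0.76 (limma adjusted p = 0.0412) and -0.78 (limma adjusted p = 0.0189). Relative to control, 7 of 12 epithelial markers were called increased in Mig-6 d/d as well (2 without the array labelled Mig-6 d/d replicate 3), and their part in the Cd14 result was not tested.

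Csf1r encodes the receptor for CSF1 and IL34 that defines macrophages. It read 319.7, 366 and 313 in control, 232, 212 and 184 in Mig-6 d/d, and 345, 249 and 299 in the double knockout. Each Mig-6 d/d array was below every array of the other groups. Csf1r fell by 0.67 on the log2 scale against control (SE 0.14, limma adjusted p = 0.0326). The double knockout was 0.50 higher than Mig-6 d/d (limma adjusted p = 0.0592), which was not called, and differed from control by -0.17 (95% interval -0.48 to 0.14). The decrease was called in 5 of the 9 fits with 1 array left out. It was -0.58 with the array labelled Mig-6 d/d replicate 3 left out (limma adjusted p = 0.108). The 2 other Csf1r probe sets gave -0.53 (limma adjusted p = 0.150) and -0.19 (limma adjusted p = 0.522).

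Cd79b encodes a signalling chain of the B cell receptor. It read 5.31, 6.59 and 6.66 in control, 10.8, 8.65 and 16.5 in Mig-6 d/d, and 6.99, 6.14 and 6.70 in the double knockout. The Mig-6 d/d arrays were again the 3 highest, at intensities near the median of the arrays. Cd79b exceeded control 1.88-fold in Mig-6 d/d (log2 0.91, SE 0.20, limma adjusted p = 0.0410) and was lower in the double knockout than in Mig-6 d/d (log2 fold change -0.81, limma adjusted p = 0.0426). The first call was kept in 1 of 9 fits with an array left out and the second in 3 of 9. With the array labelled Mig-6 d/d replicate 3 left out, changes were 0.65 (limma adjusted p = 0.0775) and -0.55 (limma adjusted p = 0.0790). Neither of the other B cell genes was called, Cd79a, its partner chain, at 4.51 to 6.21 on the 9 arrays and Ms4a1, which encodes CD20, at 3.75 to 4.75.

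**Figure D2:**
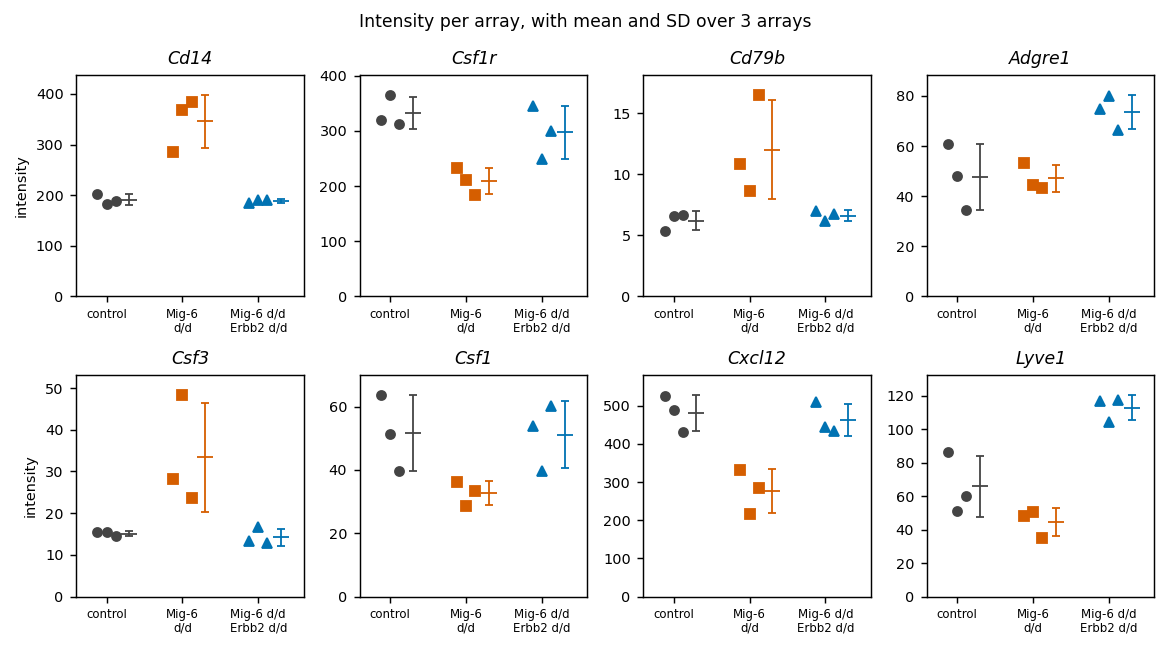
Intensity on a linear axis from 0 for 8 genes, with 1 marker per array (replicates 1 to 3 from left to right in each group) and the mean with SD over 3 arrays beside them. Cd14, Cd79b and Csf3 were highest in Mig-6 d/d, Csf1r, Csf1 and Cxcl12 were lowest there, and Adgre1 and Lyve1 were highest in the double knockout.

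No macrophage gene other than Csf1r was called in Mig-6 d/d against control. The median log2 fold change of the lineage was -0.10 over 10 genes, with 3 higher and 7 lower. The median depended on single control arrays, at -0.46 without control replicate 3 and 0.11 without control replicate 1. Cd68, a lysosomal glycoprotein of macrophages, read 30.8, 32.7 and 21.9 in control and 75.6, 45.65 and 67.7 in Mig-6 d/d, and the arrays did not overlap. Its change was 1.14 on the log2 scale with a 95% interval from 0.28 to 1.99 (limma adjusted p = 0.143), and the double knockout arrays were widely spread at 49.5, 17.1 and 52.9. Adgre1, which encodes the macrophage antigen F4/80, differed by 0.01 (95% interval -0.40 to 0.43) and Aif1, a calcium-binding protein of macrophages, by -0.03 (95% interval -0.57 to 0.50). Arrays without overlap between Mig-6 d/d and control were seen for 4 genes that were higher (Cd68, Mpeg1, Cd14 and Cd79b), or 4 of 36 where 11.6% of all genes were, and for 2 that were lower (Csf1r and Cd8a), where 14.1% of all genes were.

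To determine whether leukocyte genes differed once Erbb2 was deleted too, the double knockout was compared with control. None of the 36 genes was called in either direction by limma, where 0.214% of all genes were called increased and 0.198% decreased. The deleted genes were not called here either, Errfi1 at -3.22 (limma adjusted p = 0.3035) and Erbb2 at -1.30 (limma adjusted p = 0.0649). A gene without a call is thus not shown to be unchanged. At an unadjusted p under 0.05 there were 2 higher genes (Adgre1 and Itgax), where 4.25% of all genes were higher, and 1 lower gene (Kit), where 3.72% were lower. Arrays did not overlap for 4 higher genes (Adgre1, Aif1, Itgax and Cx3cr1), where 6.52% of all genes were higher in this way, and for 1 lower gene (Kit), where 5.32% of all genes were lower. Adgre1 read 60.7, 48.1 and 34.3 in control, 53.4, 44.6 and 43.4 in Mig-6 d/d, and 74.9, 79.8 and 66.3 in the double knockout. Its 3 double knockout arrays were the highest of the 9, with a log2 difference of 0.66 from control (limma adjusted p = 0.305). The macrophage genes had a median log2 fold change of 0.32, with 8 of 10 higher, but of 0.09 without control replicate 3. For the monocyte and myeloid genes the median was 0.30 and for the pan-leukocyte genes 0.25, where over all genes it was 0.01. Without control replicate 3 these medians were 0.08 and 0.10. Without double knockout replicate 1 the macrophage median was 0.10 and the myeloid median 0.09, while the pan-leukocyte median was 0.22.

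Next, the double knockout was compared with Mig-6 d/d, 2 groups that share the Mig-6 deletion. This comparison shares arrays with each of those above, so its values are given side by side with theirs. Among the 36 genes 0 were called increased by limma, where 3.73% of all genes were, and 2 were called decreased (Cd14 and Cd79b), where 3.76% of all genes were. At an unadjusted p under 0.05, 7 genes were higher, where 14.7% of all genes were, and 3 were lower, where 11.8% were. Arrays did not overlap for 11 higher genes, where 18.6% of all genes were higher in this way, and for 4 lower genes (Cd14, Cd79b, S100a9 and Kit), where 14.2% of all genes were lower.

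Of the 6 lineages, the macrophage genes had the highest median in this comparison, 0.52 on the log2 scale with 8 of 10 genes higher, beside 0.03 over all genes. With each array left out in turn this median stayed between 0.41 and 0.59 (0.48 without the array labelled Mig-6 d/d replicate 3). Leaving out a control array cannot move it, and it was 0.52 without control replicate 3. No single macrophage gene was called. Adgre1 was 0.65 higher (95% interval 0.23 to 1.06, limma adjusted p = 0.0683) and was called in 2 of 9 fits with an array left out. The complement genes C1qa, C1qb and C1qc, whose products assemble into C1q, differed by 0.64, 0.28 and 0.70, and the smallest limma adjusted p of these was 0.263. C1qa read 233, 297 and 123 in control, 166, 171 and 145 in Mig-6 d/d, and 334, 187 and 251 in the double knockout, so that the double knockout arrays lay above those of Mig-6 d/d while the control arrays overlapped both. Mrc1, the mannose receptor CD206 of tissue macrophages, read 109, 96.9 and 45.7 in control, 68.8, 69.9 and 44.2 in Mig-6 d/d, and 126, 71.5 and 128 in the double knockout, a log2 difference of 0.82 (95% interval 0.06 to 1.57, limma adjusted p = 0.210). Cd68 differed by -0.79 (limma adjusted p = 0.289), and Cd163, a scavenger receptor, read below 8.07 on all 9 arrays.

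Of the 4 pan-leukocyte genes, 3 had a higher mean in the double knockout than in Mig-6 d/d, and none was called. Ptprc, which encodes CD45 on all leukocytes, differed by 0.15 (95% interval -0.25 to 0.55) and was between 81.6 and 145 on all arrays. Coro1a, an actin-binding protein of leukocytes, read 67.1, 66.35 and 36.65 in control, 57.6, 45.6 and 40.75 in Mig-6 d/d, and 88.0, 66.9 and 70.1 in the double knockout, a difference of 0.65 between the knockouts (limma adjusted p = 0.137). Laptm5, a lysosomal protein of blood cells, exceeded control by 0.34 in Mig-6 d/d (limma adjusted p = 0.230), and its probe sets disagreed, since another read 668 in control replicate 3 and 18.35 to 178 on the other arrays. Cd52, a surface glycopeptide, differed by 0.37 (95% interval -0.19 to 0.94).

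Among the monocyte and myeloid genes, Cd14 was the only one called in any comparison. Lyz2, lysozyme of myeloid cells, read 286 to 587 and differed by 0.01 between Mig-6 d/d and control (95% interval -0.50 to 0.53). The receptor chains Fcer1g and Tyrobp, adaptors for Fc and other activating receptors, differed by -0.16 and 0.01 in that comparison and by 0.55 (limma adjusted p = 0.218) and 0.39 (limma adjusted p = 0.549) between the knockouts. Cx3cr1, the fractalkine receptor, was 0.34 higher in the double knockout than in Mig-6 d/d (limma adjusted p = 0.215), or 0.20 without the array labelled Mig-6 d/d replicate 3 (limma adjusted p = 0.529), and Ccr2, the receptor of inflammatory monocytes, differed by 0.18 (95% interval -0.53 to 0.90). Fcgr3, an Fc receptor, differed by 0.30 (limma adjusted p = 0.654). Itgam and Itgax, the integrin chains CD11b and CD11c, read 3.66 to 8.82.

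The T cell genes had medians of -0.09, -0.10 and -0.02 in the comparisons of Mig-6 d/d with control, of the double knockout with control and between the knockouts. In each of these the 95% intervals of all 4 genes lay within 1.5-fold in either direction. This held for 16, 17 and 12 of the 36 genes (44.4%, 47.2% and 33.3%), and over all genes for 67.1%, 79.9% and 65.8%. Because the T cell genes read near the median of the arrays, such narrow intervals do not separate an unchanged transcript from an undetected one. Cd8a was 0.27 lower on the log2 scale in Mig-6 d/d (log2 fold change -0.27, limma adjusted p = 0.266). Its other probe sets gave -0.03, 0.05, 0.03 and -0.17 against control, and on each of them the arrays of these groups overlapped.

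Of the granulocyte and mast cell genes, the neutrophil genes S100a8, S100a9 and Csf3r, encoding calprotectin chains and the G-CSF receptor, and the eosinophil gene Siglecf read at most 7.59. None of them was called. Cpa3, carboxypeptidase of mast cells, read 14.8, 9.71 and 11.6 in control, 9.02, 10.15 and 7.12 in Mig-6 d/d, and 12.2, 6.03 and 7.55 in the double knockout, with overlapping groups. Kit, the stem cell factor receptor of mast cells and of several other cell types, read 63.95, 48.4 and 42.8 in control, 50.3, 88.05 and 39.45 in Mig-6 d/d, and 32.3, 35.7 and 31.55 in the double knockout. Its double knockout arrays were below the 6 others, by 0.62 on the log2 scale against control (log2 fold change -0.62, limma adjusted p = 0.593) and 0.75 against Mig-6 d/d (log2 fold change -0.75, limma adjusted p = 0.117). Another Kit probe set, at 4.33 to 5.40 on the 9 arrays, gave -0.10 against control and -0.11 against Mig-6 d/d. Of the other mast cell genes 0 of 9 were called, and their median was 0.02 in both comparisons.

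**Figure D3:**
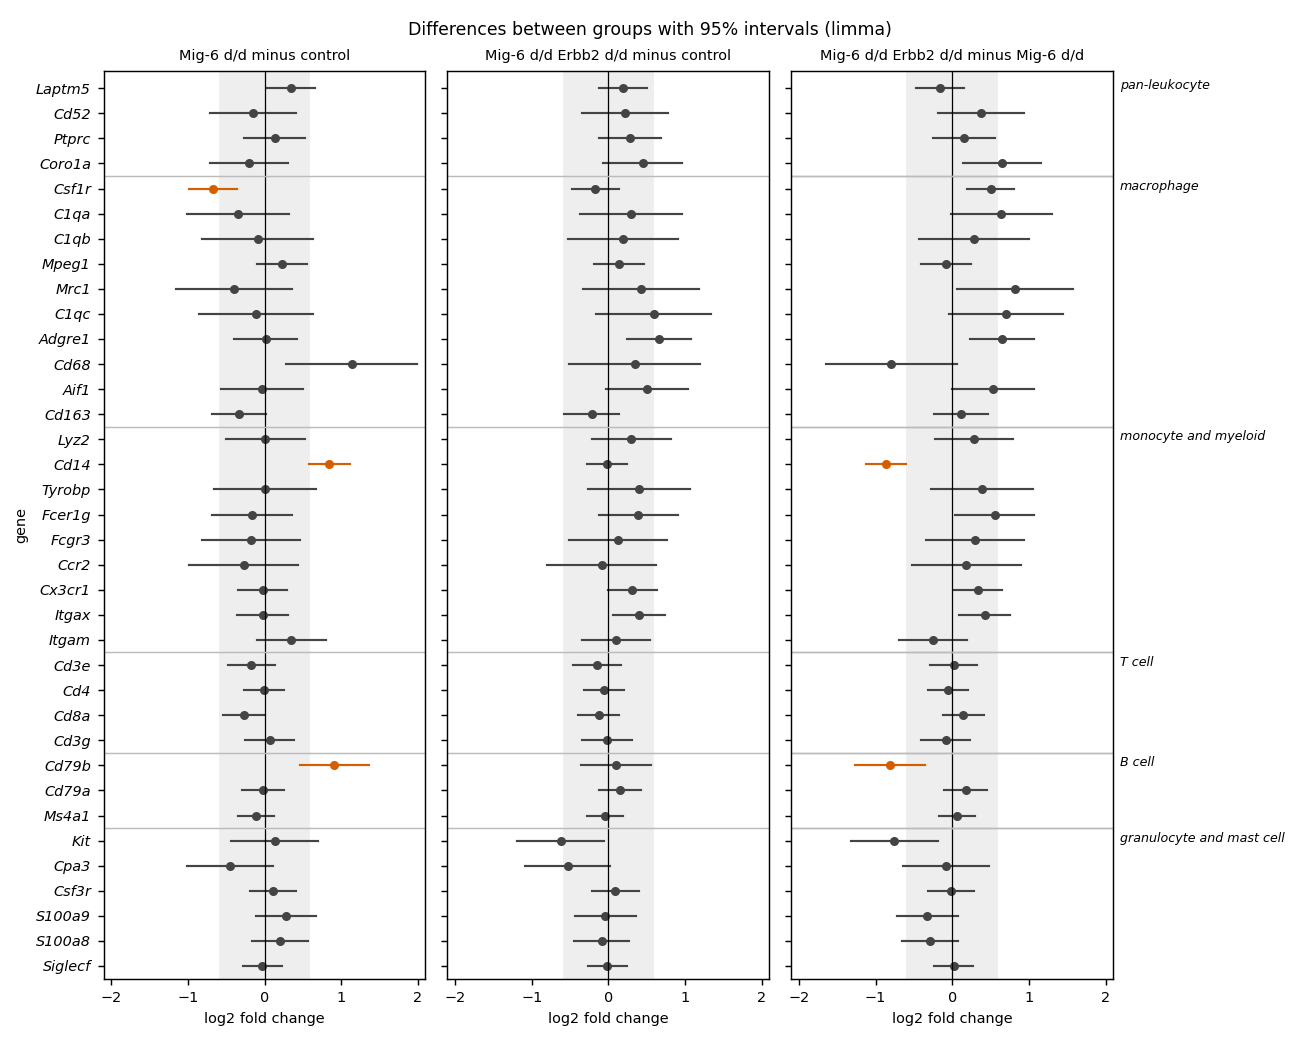
Log2 fold change of each leukocyte gene (point) with its 95% interval from limma (line) in the 3 comparisons, grouped by lineage, with called genes in orange and changes of less than 1.5-fold shaded. Cd14 and Cd79b were called in opposite directions in the left and right panels, Csf1r was called in the left panel, and 0 genes were called in the middle panel.

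Further genes of the same lineages were then counted. Of 29 other macrophage genes, 0 were called between either knockout and control, and 2 were increased relative to Mig-6 d/d in the double knockout, with a median over the list of 0.12. Lyve1, a hyaluronan receptor of lymphatic vessels and of perivascular macrophages, read 86.2, 51.2 and 59.98 in control, 48.2, 50.7 and 35.1 in Mig-6 d/d, and 117, 104 and 118 in the double knockout, which stood above all other arrays (log2 fold change 1.35 against Mig-6 d/d, limma adjusted p = 0.00499). It was called in all 9 fits with an array left out, and 4 of 8 endothelial markers were called increased in the same comparison. Pf4, platelet factor 4 of platelets and some macrophages, was higher by 1.06 (limma adjusted p = 0.0338), in 4 of 9 such fits but not without the array labelled Mig-6 d/d replicate 3 (0.87, limma adjusted p = 0.112). Leaving out that array, 2 of the 29 genes were called, Lyve1 and Mertk, a receptor for the uptake of dying cells. Of the 8 dendritic cell genes, Cd209a, a lectin of dendritic cells and macrophages, was called relative to Mig-6 d/d in the double knockout (log2 fold change 0.60, limma adjusted p = 0.0313), at 5.98 to 12.7, but not without the array labelled Mig-6 d/d replicate 3 (limma adjusted p = 0.109).

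No gene was called in any comparison among 6 MHC class II genes, 11 other T cell genes, 8 other B cell genes, 10 other neutrophil genes, 5 eosinophil genes and 9 other mast cell genes. The smallest p over the 3 comparisons lay at Cd74 and H2-Aa of the MHC class II genes, Il7r and Cd28 of the T cell genes, Mpo and Mmp9 of the neutrophil genes, Alox15 and Prg2 of the eosinophil genes, and Gata2 and Tpsb2 of the mast cell genes, where the lowest limma adjusted p was 0.144 (Mpo, -0.35 in Mig-6 d/d against control). In the B cell list Jchain, the joining chain of secreted IgA and IgM made by plasma cells, read 62.4, 106 and 39.7 in control, 281, 227 and 165 in Mig-6 d/d, and 66.6, 11.98 and 105 in the double knockout. Its Mig-6 d/d arrays were the highest, with changes of 1.77 against control (limma adjusted p = 0.190) and of -2.32 between the knockouts (limma adjusted p = 0.0694). Mzb1, a chaperone of plasma cells, was next in the B cell list, with -0.48 between the knockouts (limma adjusted p = 0.0929). Of 9 natural killer cell genes only Gzmb, granzyme B, was called, between the knockouts (log2 fold change 2.42, limma adjusted p = 0.00967), also without the array labelled Mig-6 d/d replicate 3 (2.57, limma adjusted p = 0.0255).

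The ligands of the receptors above were read as a list of 21 genes. Csf3, which encodes G-CSF, the ligand of Csf3r, read 15.5, 15.4 and 14.4 in control, 28.1, 48.3 and 23.7 in Mig-6 d/d, and 13.4, 16.6 and 12.7 in the double knockout. All Mig-6 d/d arrays were above the others, by 1.08 against control (log2 fold change 1.08, limma adjusted p = 0.0333) and with -1.17 between the knockouts (limma adjusted p = 0.0151). Cxcl12, a chemokine that retains leukocytes in tissue, read 524, 489 and 432 in control, 331, 216 and 285 in Mig-6 d/d, and 511, 444 and 434 in the double knockout. It fell by 0.81 in Mig-6 d/d against control (limma adjusted p = 0.0255) and was 0.76 higher in the double knockout than in Mig-6 d/d (limma adjusted p = 0.0194). Without the array labelled Mig-6 d/d replicate 3 Csf3 was called in both comparisons (1.29 and -1.38), and Cxcl12 was -0.84 (limma adjusted p = 0.0704) and 0.79 (limma adjusted p = 0.0519). With each array left out in turn, Csf3 was called in 5 of 9 fits against control and in 8 of 9 between the knockouts. Cxcl12 was called in 7 of 9 and 6 of 9.

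Csf1, a ligand of Csf1r, read 63.65, 51.3 and 39.8 in control, 36.2, 28.6 and 33.3 in Mig-6 d/d, and 53.7, 39.5 and 60.2 in the double knockout. The Mig-6 d/d arrays were below all others, by 0.64 on the log2 scale against control (log2 fold change -0.64, limma adjusted p = 0.109) and 0.63 against the double knockout (limma adjusted p = 0.0891), and neither was called. Il34, the other ligand of Csf1r, read 3.85 to 5.52. Kitl, the ligand of Kit, differed by -0.31 in Mig-6 d/d (limma adjusted p = 0.433) and by -0.41 in the double knockout (limma adjusted p = 0.663) against control. Cx3cl1, Ccl2 and Ccl7, ligands of Cx3cr1 and Ccr2, were not called. Ccl11, eotaxin, read 225 in double knockout replicate 3 and 14.1 to 40.05 on the other arrays.

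Markers of other uterine compartments moved with these groups. Of 12 epithelial markers, 7 were called increased in Mig-6 d/d against control (median log2 fold change 1.47) and 9 were called decreased relative to Mig-6 d/d in the double knockout (median -1.65), and 0 were called between the double knockout and control. The largest of these changes were in the keratin Krt7 (2.61) and the claudin Cldn7 (2.15), and in Krt7 (-2.82) and the keratin Krt19 (-2.39) between the knockouts. Without the array labelled Mig-6 d/d replicate 3 the counts were 2 (Cldn7 and Grhl2; median 1.34) and 7 (median -1.61). The first count was 2 to 4 without Mig-6 d/d replicate 1, control replicate 1 or 2, or double knockout replicate 1 or 2, and the second was 5 without double knockout replicate 1. Set against its mean over the 9 arrays, the epithelial list stood at -0.60, -0.78 and 0.08 in control, 1.12, 0.73 and 1.23 in Mig-6 d/d, and -0.90, -0.67 and -0.21 in the double knockout, and thus was highest in Mig-6 d/d, as Cd14, Cd79b and Csf3 were. Of 8 endothelial markers, 3 were called decreased in Mig-6 d/d (median -0.75), led by the receptor gene Tek (-1.04) and the cadherin gene Cdh5 (-0.88), and 4 increased relative to Mig-6 d/d in the double knockout (median 0.64), led by Tek (0.88) and the adhesion molecule Pecam1 (0.76). Without the array labelled Mig-6 d/d replicate 3 these counts were 3, with Vwf in place of Cldn5, and 3, without Pecam1. The first was 0 without control replicate 2 or Mig-6 d/d replicate 1, and the second was 1 without double knockout replicate 1 or 2 or Mig-6 d/d replicate 1 or 2. Of 8 smooth muscle markers 0 were called in Mig-6 d/d (median -0.62) and 4 were increased between the knockouts (median 1.01), led by the actin gene Actg2 (1.17) and desmin, Des (1.14), but 1 to 2 were without any 1 of the double knockout arrays or without Mig-6 d/d replicate 1 or 2. Of 10 stromal markers 1 was decreased in Mig-6 d/d (Vim; list median -0.43) and 1 increased between the knockouts (Col1a1; list median 0.40). Without the array labelled Mig-6 d/d replicate 3 Vim was not called (-0.62, limma adjusted p = 0.0975) and Col1a1 was (0.92, limma adjusted p = 0.0326). Of 7 ovary and oviduct genes only Inha, an inhibin chain, was called, between the knockouts (0.78, limma adjusted p = 0.0401), but not without that array (0.90, limma adjusted p = 0.0504), and of 3 erythroid genes 0 were called, with the smallest p at Alas2 and Slc4a1. The lower levels of Csf1r and Cxcl12 in Mig-6 d/d lay beside lower levels of the endothelial, smooth muscle and stromal lists. The macrophage list itself stood at 0.21, 0.13 and -0.56 in control, -0.04, -0.12 and -0.24 in Mig-6 d/d, and 0.47, -0.12 and 0.26 in the double knockout. On control replicate 3 the macrophage list was at its lowest and the epithelial list at its highest among the control arrays. The part of tissue composition in the leukocyte results was not tested.

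**Figure D4:**
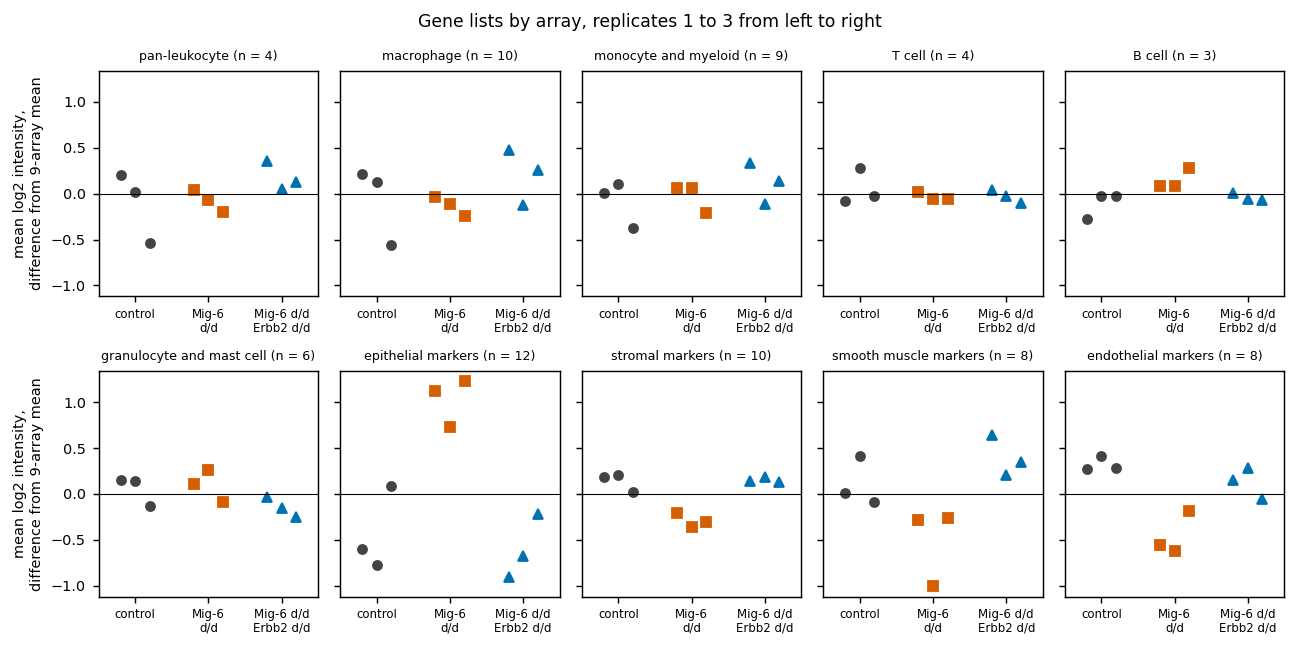
Mean log2 intensity of each gene list on each array, as the difference from that list's mean over the 9 arrays, with replicates 1 to 3 from left to right in each group and the number of genes in each title. The epithelial markers separate Mig-6 d/d (0.73 to 1.23) from the other groups (at most 0.08), whereas the macrophage list overlaps between all 3 groups.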

How the data were processed

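Whole-uterus RNA was hybridised to Affymetrix mouse arrays. The authors made the deposited values, 1 intensity per probe set and array, with RMA (robust multi-array averaging, version not given in the sources used here). They are on a linear scale, and log2 values were taken here. Of 45037 probe sets 34945 had 1 gene symbol in the platform table, and each gene was read at its brightest probe set.

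Tests used limma 3.58.1 (functions lmFit and eBayes, R 4.3.3) over all probe sets, with a called gene at an adjusted p under 0.05 and above 1.5-fold. The script was tested on simulated data. All genes of the set are named, with the ligands of their receptors, and from every further list up to 2 called genes per direction, by size of change, or 2 by smallest p where none was called. Mertk, Grhl2, Vwf and Cldn5 were named after their values were seen. The genes and lists were chosen with earlier results of these data known. Promoters came from RefSeq, and figures from matplotlib 3.10.9 under Python 3.11.15. Alternatives were other filters, normalizations and variance models, each array left out in turn, a replicate block, other thresholds, an unpaired t-test and other probe set rules. This t-test, with equal variances on log2 values, is called the methods' t-test below. The methods name an unpaired t-test for data with 2 groups in general, but no test for the arrays. Scanner files were not used here, and precision is limited by the number of arrays.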

Additional observations from a re-analysis of the deposited data

How the results depend on the processing

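The values below are counts of leukocyte genes called out of 36, with counts over all 18193 genes where these are named. In Mig-6 d/d against control, 2 genes were called increased and 1 decreased, with 2 and 1 under the replicate block. Fitting only the 6 arrays compared gave 1 increase (Cd14), and averaging the probe sets of a gene gave 0 decreases. The methods' t-test with Benjamini-Hochberg adjustment gave 0 increases and 0 decreases. Over all genes the main fit called 464 increased and 329 decreased. These became 237 and 147 with only the 6 arrays compared, 0 and 0 with that t-test, and 459 and 255 with averaged probe sets. Leaving out 1 array at a time gave 1 to 2 increases and 0 to 1 decreases. Csf1r lost its call without control replicate 2 or without any 1 of the Mig-6 d/d replicates. Cd79b lost its own in 8 of the 9 fits. Over all genes the 9 fits called 134 to 590 increases and 83 to 422 decreases. These counts were 134 and 83 without control replicate 2. Without Mig-6 d/d replicates 1, 2 and 3 they were 137 and 85, 493 and 196, and 145 and 122. In the double knockout against control 0 genes were called. The methods' t-test without adjustment gave 1 decrease (Kit), and all other settings gave 0. Over all genes that t-test called 97 decreased, beside 36 in the main fit. Between the knockouts, 0 genes were called increased. This became 2 (Coro1a and Adgre1) with only the 6 arrays compared and with the methods' t-test without adjustment. It became 1 (Adgre1) with array weights, with the replicate block and with an adjusted p under 0.1. Over all genes the main fit called 678 increased, and these settings called 797, 845, 790, 698 and 851 in the order named. Leaving out 1 array gave 0 to 2 increases, the 2 without control replicate 3 (Coro1a and Adgre1). Over all genes the fit without control replicate 3 called 761 increased. The 2 decreases became 1 (Cd14) with only the 6 arrays compared and 0 with the methods' t-test with Benjamini-Hochberg adjustment. They were 1 to 2 with an array left out. Over all genes 684 decreases became 820 with only the 6 arrays compared and 12 with that t-test. With an array left out the all-gene decreases were 321 to 771. The cause of these differences was not tested. Same-numbered arrays correlated in their deviations from the group means by -0.13 to 0.20. Differently numbered arrays were not compared in this way, so these values cannot tell whether the replicate numbers pair the arrays. Signal over background could not be judged for the 10 genes that a filter on dim probe sets removed, which left 26. Cd79b passed it only through the Mig-6 d/d arrays.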
